A study of Mus musculus with 8 samples.

Results

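Hand1, Hand2, Nkx2-5, Isl1, Irx3, Irx4, Irx5, Hopx, Meis1 and Meis2 encode homeodomain and basic helix-loop-helix proteins that pattern the developing heart. These 10 genes were chosen by name, and each had a single row among the 53921 gene rows of a count table from mouse induced cardiomyocytes. Of the 10, 4 had enough counts to be tested (Hand2, Hopx, Meis1 and Meis2). The other 6 were near the detection limit in every library, and Irx4 had 0 counts throughout.

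Induced cardiomyocytes are fibroblasts converted towards heart muscle by added transcription factors. Every library came from cells given MGT (usually Mef2c, Gata4 and Tbx5), a mix that holds none of the 10 genes. One arm carried a lentiviral short hairpin RNA labelled shNT, taken here as the control, and the other a hairpin labelled shGrhl3, against a Grainyhead-like factor known from epithelia. Each arm had 2 RNA-seq libraries from day 5, and the H3K27ac CUT&Tag data were not used here. The labels add the word Neo in brackets to the cell type and name no strain, hairpin number or culture. The replicate spread behind each p-value may therefore be technical. A gene was called where its edgeR quasi-likelihood p, adjusted by Benjamini-Hochberg over all 15324 genes with enough counts to be tested, was under 0.05. Fold changes are shGrhl3 over shNT.

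Hand proteins bind DNA as dimers with E proteins such as Tcf3, Tcf4 and Tcf12, and Id proteins compete for those partners. Nkx2-5 and Isl1 act early in heart progenitors, and the Iroquois factors Irx3, Irx4 and Irx5 are known in mouse for conduction, ventricular identity and the gradient of a potassium current. Meis proteins bind DNA with Pbx partners, whereas Hopx has a homeodomain that does not bind DNA and acts through proteins such as Srf and Hdac2.

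Counts assigned to genes ranged from 16102839 to 19822541 per library. Grhl3 itself was low, with 31 and 14 counts under shNT and 11 and 19 under shGrhl3, and a fall was not detected (adjusted p = 0.362, edgeR). The columns taken as shGrhl3 are named shGrhl1 and shGrhl2 in the table, and the digit was read as the replicate number. Of 15 cardiomyocyte markers, 14 were high enough to be tested, and the exception was Nkx2-5. The most abundant of them, the cardiac troponin T gene Tnnt2, stood at 3105 to 3311 CPM (counts scaled to a common library size with TMM factors). Markers of cardiac fibroblasts were also abundant. Their summed level was 15992 to 16009 CPM across the shNT libraries and 17494 to 18053 CPM across the shGrhl3 libraries. The higher shGrhl3 sum does not describe most of the called markers, as 2 of 12 tested were called higher and 5 lower. Col1a1, the most abundant, had a mean of 4201 CPM under shNT and 6084 CPM under shGrhl3.

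The promoter sequences of the 3 called genes are shown because the results turn on them. RefSeq windows of 250 bases before to 50 bases after a start were given for 8 of the 10 genes, with 2 starts for Hopx. The 250 upstream bases are printed 5′ to 3′ on the strand of the gene, from GRCm38.p6, and capitals mark the letters that match a searched motif.
Hand2, plus strand, chr8:57320733-57320982: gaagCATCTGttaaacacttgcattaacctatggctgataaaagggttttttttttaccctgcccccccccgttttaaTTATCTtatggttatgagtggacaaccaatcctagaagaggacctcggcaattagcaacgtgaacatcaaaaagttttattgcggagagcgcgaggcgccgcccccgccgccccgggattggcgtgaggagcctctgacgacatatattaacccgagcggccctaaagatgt
Meis1, minus strand, chr11:19018970-19019219: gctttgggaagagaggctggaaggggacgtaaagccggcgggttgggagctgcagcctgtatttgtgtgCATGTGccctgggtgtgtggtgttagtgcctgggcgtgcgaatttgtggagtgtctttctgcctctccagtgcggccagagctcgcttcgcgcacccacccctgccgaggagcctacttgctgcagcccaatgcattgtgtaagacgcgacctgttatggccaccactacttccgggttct
Hopx, distal start, minus strand, chr5:77115124-77115373: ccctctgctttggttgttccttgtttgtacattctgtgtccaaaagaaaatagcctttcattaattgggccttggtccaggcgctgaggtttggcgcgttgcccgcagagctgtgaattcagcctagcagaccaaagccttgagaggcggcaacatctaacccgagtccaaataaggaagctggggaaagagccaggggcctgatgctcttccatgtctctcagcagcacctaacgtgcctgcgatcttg
Hopx, proximal start, minus strand, chr5:77095268-77095517: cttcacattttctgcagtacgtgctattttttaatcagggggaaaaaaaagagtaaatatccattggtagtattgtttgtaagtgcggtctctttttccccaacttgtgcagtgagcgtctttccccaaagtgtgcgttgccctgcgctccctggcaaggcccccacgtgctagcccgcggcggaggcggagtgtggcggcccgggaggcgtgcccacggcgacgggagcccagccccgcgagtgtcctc

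The searched motifs, on both strands, were AACNNGTT for Grainyhead-like factors, AGATAA for GATA factors, AGGTGT for T-box factors, TGACAG for Meis and CATNTG for dimers of the Hand and Twist kind. They occurred in 4.2%, 11.2%, 13.7%, 19.2% and 39.4% of all 32851 promoter windows of the same length. The Hand2 window held CATNTG at bases -246 to -241 from its start and AGATAA, read on the opposite strand, at bases -172 to -167. The Meis1 window held CATNTG at bases -181 to -176, and no matches overlapped. None of the motifs was in either Hopx window. Of the other genes, Nkx2-5 held TGACAG and CATNTG, Isl1 held AGATAA, and Irx3, Irx4 and Meis2 held none. The Meis1, Nkx2-5, Irx4, Meis2 and proximal Hopx windows lie inside the annotated spans of their genes, ahead of starts within them. The Grainyhead-like letters were in none of the windows of the 8 genes, which says only that they are not within this window. The ratio of observed to expected CpG was 0.897 in the Hand2 window, against a median of 0.384 over all windows. In Hopx it was 0.381 at the distal and 0.805 at the proximal start, and the counts do not tell transcripts from these starts apart.

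Hopx was the member with the largest difference, and it was higher in shGrhl3 cells. Its raw counts were 46 and 31 under shNT and 253 and 251 under shGrhl3. Scaled for depth, its level was 2.40 and 1.95 CPM in controls and 12.6 and 13.4 CPM with the hairpin. Both shGrhl3 libraries lay far above both shNT libraries, and the libraries of each arm lay close together. The mean level was 2.18 ± 0.319 CPM against 13.0 ± 0.579 CPM (here and below ± is the SD, n = 2), and the fitted rise was 5.93-fold. On the log2 scale the difference was 2.57 with an SE of 0.22 and a 95% interval of 2.11 to 3.03 (adjusted p = 5.54e-09, edgeR). The rise ranked 65 among the fold changes of the 15324 genes tested. Hopx (chromosome 5, 77086986 to 77115123) thus accounted for the single member called higher, where 17.1% of all tested genes were called higher. Its call held under all 13 alternatives, with a log2 fold change between 2.44 and 2.73.

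Hand2, needed for the right ventricle in mouse and also expressed in cardiac fibroblasts, was lower in shGrhl3 cells. Control libraries held 43.2 and 50.3 CPM and hairpin libraries 39.0 and 30.7 CPM. The arms did not overlap, but shNT replicate 1 and shGrhl3 replicate 1 were close. The mean went from 46.7 ± 5.06 to 34.8 ± 5.85 CPM, and the fitted level fell by 25.3%. The log2 fold change was -0.42 with an SE of 0.12 and a 95% interval of -0.68 to -0.17 (adjusted p = 0.00966, edgeR). The call was lost without shNT replicate 2 (log2 fold change -0.31, adjusted p = 0.113) and without shGrhl3 replicate 2 (-0.24, adjusted p = 0.145). The estimate moved to -0.60 without shGrhl3 replicate 1.

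The long noncoding RNA Hand2os1, also called Uph, is read from the opposite strand next to Hand2 and fell as well. In mouse, its transcription is known to bear on Hand2 expression in the heart. The annotated starts lie 124 bases apart (chromosome 8, Hand2 at 57320983 to 57324517 and Hand2os1 at 57304261 to 57320859), so the start of Hand2os1 lies inside the Hand2 sequence printed above. Reads of Hand2os1 numbered 193 and 177 in controls and 122 and 80 with the hairpin. These are levels of 10.1 and 11.1 CPM against 6.08 and 4.28 CPM, with no overlap. The mean fell from 10.6 ± 0.750 to 5.18 ± 1.27 CPM. This is a log2 fold change of -1.03 with an SE of 0.21 and a 95% interval of -1.46 to -0.59 (adjusted p = 0.000489, edgeR). The call held under all 13 alternatives, with values between -1.31 and -0.78, and the difference between the changes of Hand2os1 and Hand2 was not tested. Strand use in the counting is not stated, so reads crossing from one gene to the other could not be assigned by strand.

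Meis1, which restrains division of cardiomyocytes after birth in mouse, was lower as well. It stood at 32.7 and 36.2 CPM under shNT and 22.6 and 28.1 CPM under shGrhl3, with no overlap. The mean went from 34.4 ± 2.51 to 25.4 ± 3.86 CPM, and the fitted level fell by 26.3%. Its log2 fold change of -0.44 had an SE of 0.13 and a 95% interval of -0.70 to -0.18 (adjusted p = 0.00814, edgeR). The call was lost without shNT replicate 2 (log2 fold change -0.36, adjusted p = 0.0673) and without shGrhl3 replicate 1 (-0.29, adjusted p = 0.120). Meis1 lies on chromosome 11 (18880428 to 19019651).

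Its paralog Meis2 did not pass the test. Meis2 (chromosome 2, 115861264 to 116067537) stood at 36.3 and 40.6 CPM under shNT and 32.8 and 33.3 CPM under shGrhl3. The shGrhl3 libraries were the lower pair, without overlap. The arms did not overlap for 66.5% of all tested genes, and shGrhl3 was the lower arm for 33.7%. The difference was -0.21 on the log2 scale (SE 0.11, 95% interval -0.45 to 0.02, adjusted p = 0.143, edgeR), so a fall as large as 0.45 on the log2 scale lies within the interval. Whether Meis1 and Meis2 changed by different amounts was not tested. With 1 member higher and 2 lower of 4 tested, the calls compare with 35.0% of all tested genes called in either direction and 17.9% called lower.

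**Figure D1:**
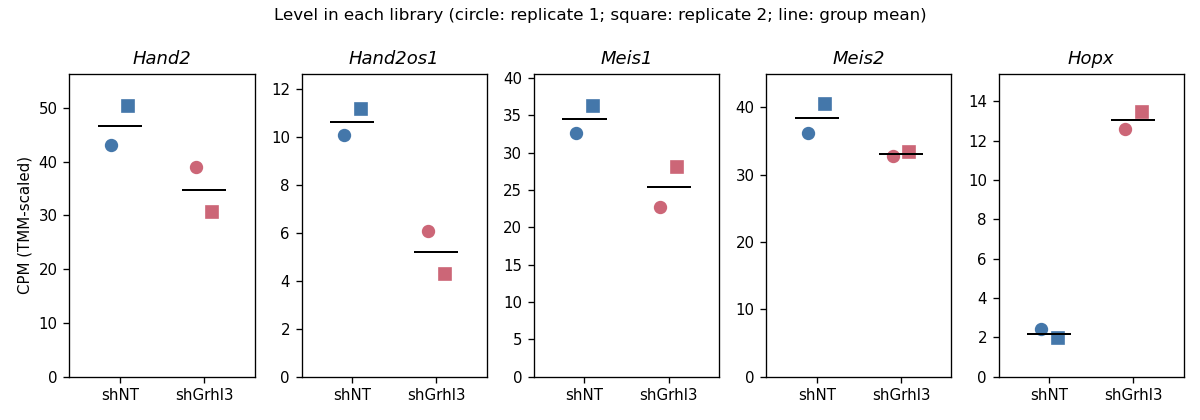
CPM (TMM-scaled counts, linear axes from 0) of the 4 tested members and Hand2os1 in the 2 shNT (blue) and 2 shGrhl3 (red) libraries, with group means as lines. Hopx rises from about 2.18 to 13.0 CPM, whereas the Hand2 points of replicate 1 lie close together at 43.2 and 39.0 CPM.

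**Figure D2:**
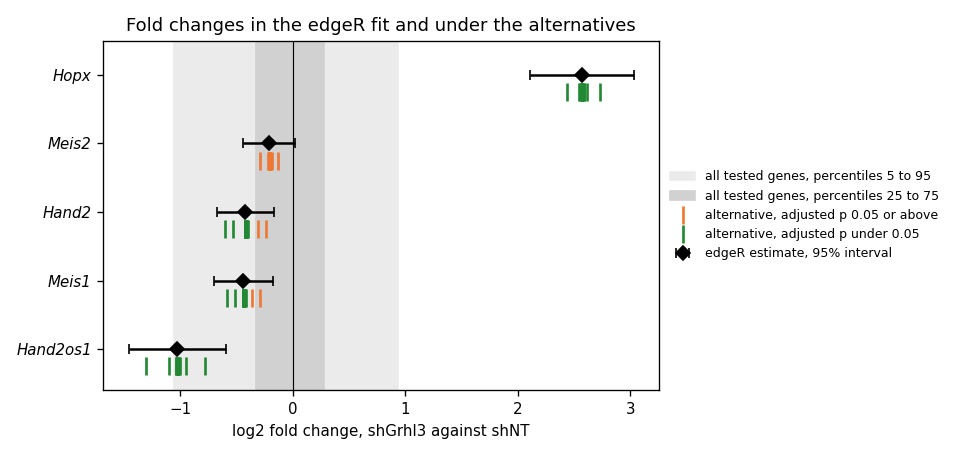
Log2 fold change of shGrhl3 against shNT with its 95% interval (diamonds), and the same value under 13 alternative settings (ticks, green where the adjusted p was under 0.05), over grey bands for all tested genes. Hopx lies beyond the 95th percentile of 0.93, and Hand2 and Meis1 each have 2 orange ticks.

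Among the members, Nkx2-5, Isl1 and Hand1 were barely detected. Nkx2-5 (chromosome 17, 26838664 to 26844988), a homeodomain factor of early cardiomyocytes, had 14 and 1 counts under shNT and 8 and 2 under shGrhl3. Its highest value was 0.732 CPM, and in each arm replicate 1 was the higher library. Isl1 (chromosome 13, 116298270 to 116309688), a LIM-homeodomain factor of the second heart field, had 1 count in shNT replicate 2, 1 in shGrhl3 replicate 1 and 0 in the other libraries. Hand1 (chromosome 11, 57828713 to 57832147), a left ventricular factor in mouse, had 1 and 0 counts under shNT and 7 and 0 under shGrhl3. All 7 shGrhl3 counts thus came from a single library.

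The Iroquois genes were likewise at the limit of detection. Irx3 (chromosome 8, 91798511 to 91801654), which acts in the fast conduction system, had 2 and 8 counts under shNT and 8 and 10 under shGrhl3, and its highest level was 0.535 CPM. Irx5 (chromosome 8, 92357796 to 92361456), a repressor of the potassium channel gene Kcnd2 in mouse, had 3 and 2 counts under shNT and 2 and 3 under shGrhl3. Irx4 (chromosome 13, 73259589 to 73269622), a ventricular factor, had 0 counts in all 4 libraries. At 3 counts per library, a count of 0 allows a level of up to 0.150 to 0.189 CPM, which covers counting error only. Fitted with no expression filter, 5 of these 6 genes gave a value and 0 passed, with unadjusted p-values from 0.259 for Hand1 to 0.962 for Isl1 in edgeR. DESeq2 gave 0 of them an unadjusted p under 0.05 and no adjusted p. The interval of Nkx2-5 in that unfiltered fit ran from -2.66 to 1.35 on the log2 scale, and that of Irx3 from -1.25 to 2.54. Differences of several fold were therefore not detectable at this depth.

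**Figure D3:**
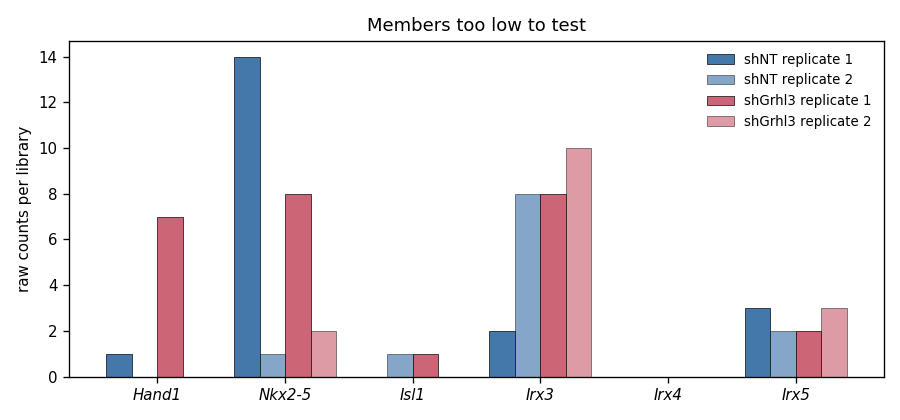
Raw counts per library (linear axis from 0) of the 6 members too low to test, in the shNT (blue) and shGrhl3 (red) libraries. The tallest bar is 14 counts of Nkx2-5 in shNT replicate 1, and Irx4 has no counts.

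The nearest gene with a row in the table was looked up on each side of each member. On 1 side of Hopx, Meis1 and Meis2 this gene overlapped the member, and the gene beyond it was not examined. Of these 20 genes only 5 were high enough to be tested, and Hand2os1 was the single one past the threshold, with 1 lower and 0 higher. Over all tested genes, 35.0% passed. Bnip1, next to Nkx2-5, had an unadjusted p of 0.0484 with a log2 fold change of 0.32 (adjusted p = 0.112), and 0 neighbours were called higher by DESeq2. On the other side of Hand2, Gm34030 had a log2 fold change of -0.88 that did not pass (SE 0.54, adjusted p = 0.227). Of the antisense genes, Irx3os had 0 counts in all libraries and Hopxos was at 0 CPM in both controls and 0.0249 ± 0.0353 CPM with the hairpin.

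Relatives of the 10 genes were called at a share near that of all tested genes, 33.3% against 35.0%. Of 13 related family genes, 6 were tested. Of these, 2 were called higher, 0 lower and 4 neither, with a median log2 fold change of 0.11 against -0.01 over all tested genes. Meis3, the third Meis paralog, rose from 23.6 ± 1.49 to 30.5 ± 0.773 CPM, a log2 fold change of 0.37 with an SE of 0.12 (adjusted p = 0.0180, edgeR). All shGrhl3 libraries were above all shNT libraries for Meis3, opposite in sign to Meis1. Nkx2-9 rose from 0.398 ± 0.0284 to 1.47 ± 0.182 CPM, or 1.86 on the log2 scale (adjusted p = 0.0152). DESeq2 called neither (adjusted p = 0.0720 for Meis3 and 0.0835 for Nkx2-9). Leaving out replicate 1 of either arm also ended both calls, and leaving out shNT replicate 2 ended that of Nkx2-9. Relatives with an estimate below 0 had unadjusted p-values of 0.668 or higher in edgeR, and DESeq2 called 0 lower.

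Genes of E proteins, Id proteins and Twist-type factors were mostly lower where they passed. Of the 11 tested, 6 fell, 1 rose and 4 did not pass, with a median log2 fold change of -0.50. The share called was 63.6%, against 35.0% of all tested genes. Tcf4, an E protein, stood at 125 and 127 CPM under shNT and at 63.6 and 65.4 CPM under shGrhl3 (log2 fold change -0.96, SE 0.09, adjusted p = 1.55e-08). Id2 fell from 23.8 ± 0.545 to 13.9 ± 1.31 CPM and Id3 from 86.7 ± 10.8 to 57.5 ± 5.27 CPM. Tcf21, a factor of epicardium and cardiac fibroblasts, fell from 300.3 ± 18.9 to 184 ± 24.5 CPM. The E protein gene Tcf3 stood at 39.5 ± 0.555 and 41.7 ± 1.76 CPM (adjusted p = 0.611), and the single riser was the tendon factor Scx (log2 fold change 0.98).

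Partners of Meis proteins moved in both directions. Of 10 tested TALE cofactors, 50% were called, against 35.0% of all tested genes. Among these 10 genes, 2 rose, 3 fell and 5 did not pass, with a median log2 fold change of 0.01. The risers were Pbxip1 and the paralog Meis3, which this list shares with the relatives counted above. Without shNT replicate 1, 0 were called higher, and 1 without shGrhl3 replicate 1. Tgif1 fell from 98.2 ± 7.58 to 63.1 ± 5.83 CPM and Pknox2 from 51.8 ± 2.73 to 39.0 ± 3.93 CPM. Pbx2 and Pbx3 did not pass, with log2 fold changes of 0.13 and 0.08. Pbxip1, which encodes a Pbx-binding protein, rose from 250.5 ± 5.08 to 309.9 ± 0.420 CPM, a call lost without shNT replicate 1 (adjusted p = 0.0947). The Pknox2 call was lost without shNT replicate 2 (0.0558) and without shGrhl3 replicate 2 (0.0601).

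Cofactors of LIM-homeodomain proteins were present although Isl1 itself was at the detection limit. Among the 7 tested, 2 were called higher, 2 lower and 3 neither, with a median log2 fold change of -0.19. In either direction 57.1% were called, against 35.0% of all tested genes. Ldb1, the bridging partner of LIM-homeodomain factors, fell from 121 ± 7.40 to 99.8 ± 6.44 CPM (log2 fold change -0.28, adjusted p = 0.0194). Ssbp3, which stabilises Ldb1, rose from 47.9 ± 5.94 to 78.9 ± 0.947 CPM, and Ssbp2 from 35.3 ± 4.93 to 44.6 ± 1.42 CPM. Lmo4, a LIM-only protein, fell from 75.6 ± 3.40 to 58.7 ± 0.782 CPM. Among these, the Ldb1 and Ssbp2 calls were each lost in 3 alternatives, and that of Lmo4 without shNT replicate 2, where 0 cofactors were called lower.

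Genes listed as partners of Hopx, or as factors linked to those partners, were called in both directions. Of 13 listed genes, 11 were in the count table and tested. Among these 11, 45.5% were called, against 35.0% of all tested genes. In this list 1 rose, 4 fell and 6 missed the threshold, with a median log2 fold change of -0.10. These counts rest on single libraries, with 1 higher and 1 lower without shNT replicate 1, 0 and 2 without shNT replicate 2, 2 and 2 without shGrhl3 replicate 1, and 0 and 4 without shGrhl3 replicate 2. Srf, whose activity Hopx restrains in mouse, stood at 60.0 ± 4.31 and 56.1 ± 6.98 CPM (log2 fold change -0.10, 95% interval -0.32 to 0.12, adjusted p = 0.522). Hdac2, the deacetylase that Hopx recruits, was the single riser, with 101 and 109 CPM under shNT and 120 and 126 CPM under shGrhl3 (log2 fold change 0.23, adjusted p = 0.0470). The Hdac2 call was lost in 6 of 13 alternatives, among them the replicate block (adjusted p = 0.0902) and DESeq2 (0.0642). Smad5 fell from 63.8 ± 1.22 to 37.3 ± 2.67 CPM, Smad4 from 79.2 ± 4.12 to 60.9 ± 1.33 CPM and Mrtfa from 53.4 ± 0.122 to 42.7 ± 1.29 CPM. The Smad4 call was lost without shNT replicate 1 (adjusted p = 0.0669) and that of Mrtfa in 4 alternatives. Gata4, usually also a factor of the delivered MGT mix, fell (log2 fold change -0.23, adjusted p = 0.0320). The call was lost in 5 alternatives, with an adjusted p of 0.0717 under the replicate block. The counts do not tell delivered from endogenous Gata4 transcripts apart.

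Genes known as targets of these factors, mostly from mouse hearts, gave 7 calls higher and 2 lower. The other 8 of the 17 tested were not called, and the median log2 fold change over all 17 was 0.24. Their share called, 52.9%, compares with 35.0% of all tested genes. Actc1, the cardiac alpha actin, rose from 277 ± 15.6 to 545 ± 29.0 CPM, Myl7, the atrial light chain, from 708 ± 0.140 to 1162 ± 95.7 CPM, and Gja1 rose with a log2 fold change of 0.67. The fallers, named because they are few, were Nppa (log2 fold change -0.61) and the cell cycle inhibitor Cdkn2b (-0.51), and each of these calls was lost in 3 alternatives, DESeq2 among them (adjusted p = 0.0917 and 0.181). Another cell cycle inhibitor gene, Cdkn2a, rose from 1.06 ± 0.426 to 3.25 ± 0.0564 CPM (log2 fold change 1.59, adjusted p = 0.00304, edgeR). Kcnd2 did not pass (log2 fold change 1.05, SE 0.58, adjusted p = 0.169), and neither did Cdkn1a, a target of Meis1 in mouse (-0.19, SE 0.08, adjusted p = 0.0654).

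**Figure D4:**
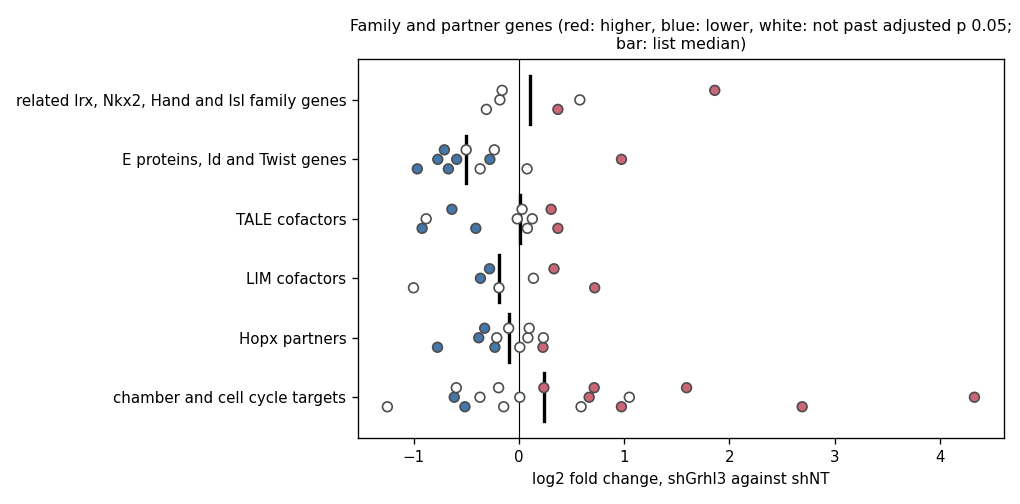
Log2 fold change of shGrhl3 against shNT for each tested gene of 6 lists (red higher, blue lower, white not past an adjusted p of 0.05; the black bar is the list median). The E protein, Id and Twist-type list has its median at -0.50, and the target list has its median at 0.24.

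Markers of other cells also moved between the arms. Of 14 tested leukocyte markers, 13 fell and 1, Csf1r, rose, and their summed level was 696 to 957 CPM in control libraries and 133 to 166 CPM under the Grhl3 hairpin. Lyz2 was the most abundant of them. The 4 leukocyte markers too low to test were C1qa, C1qb, C1qc and Aif1, at up to 0.693 CPM in a library. C1qb and C1qc were at 0 in both shGrhl3 libraries, whereas the arms overlapped for C1qa and Aif1. Cardiac fibroblast markers had 2 higher and 5 lower of 12 tested, and cardiomyocyte markers 6 higher and 1 lower of 14. These tallies are not independent of those above. The cardiomyocyte list shares Actc1, Myl7 and Nppa, among others, with the target list, and the fibroblast list shares Tcf21 with the E protein list. Endothelial markers had 0 higher and 2 lower of 10, smooth muscle and pericyte markers 2 higher and 3 lower of 10. Epicardial and mesothelial markers had 2 higher and 1 lower of 10, and neural and Schwann markers 0 higher and 1 lower of 3 tested. The shares called were 100% for leukocyte, 58.3% for cardiac fibroblast and 50% for cardiomyocyte markers. They were 20% for endothelial, 50% for smooth muscle and pericyte, 30% for epicardial and mesothelial, and 33.3% for neural and Schwann markers. Over all tested genes the share was 35.0%. In bulk RNA, fewer cells of a type and less RNA per cell cannot be told apart, and the part of these markers in the changes of Hopx, Hand2, Hand2os1 and Meis1 was not tested.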

How the data were processed

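The authors deposited raw counts per gene for the 4 RNA-seq libraries in a single table, and its whole-number columns have unequal totals. Tools named in the submitters' processing notes are MACS2, ChIPseeker, Bowtie2 2.2.6, HISAT2 2.0.1 and cutadapt 1.9.1, with build mm10, and their use for RNA-seq is not stated. How reads were counted (program, annotation, strand) is not given either, so reads of paralogs or overlapping antisense genes may be split or merged.

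Of 55359 rows, 1438 name no gene and hold 0.00432% to 0.00872% of a library's counts. They were left out. Genes passing filterByExpr (minimum count 10; 15324 genes) were scaled by TMM and tested with edgeR 4.0.16 (R 4.3.3; robust quasi-likelihood, no covariate, two-sided), with Benjamini-Hochberg adjustment over all tested genes and a threshold of 0.05. The SE was derived from the F statistic. The procedure was tested on simulated data. CPM is not scaled for transcript length, so levels were compared between the arms within a gene. The markers named most abundant and the summed marker levels rest on this unscaled CPM. Replicate libraries differed beyond sampling noise (chi-square per degree of freedom 14.1 in shNT and 8.66 in shGrhl3) and were kept as 2 per group. Alternatives used limma-voom (limma 3.58.1), DESeq2 1.42.0, other scalings, filters and row sets, a replicate block, and each library left out.

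The members, the 6 lists of relatives, partners and targets, the 7 marker lists and the 5 motifs were chosen with earlier results of these data known. Named genes are all members, the 4 called genes of lowest p in each list, and called neighbours, and some genes that this rule named are not reported here. Tcf3, Scx, Pbx2, Pbx3, Srf, Hdac2, Nppa, Cdkn2b, Cdkn2a, Kcnd2, Cdkn1a, Bnip1, Gm34030, Irx3os, Hopxos, Csf1r, C1qa, C1qb, C1qc and Aif1 were chosen after their values were seen. Gene positions and sequences are from RefSeq (GRCm38.p6), and all 10 members matched by symbol.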

Additional observations from a re-analysis of the deposited data

How the results depend on the processing

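The count of 1 member higher held under all 13 alternatives. The count of 2 members lower held except when a library was left out, where it ranged from 0 to 2. Meis2 kept its direction and missed the threshold in all 13 (log2 fold change -0.30 to -0.13). Of the 60 tested list genes, 14 rose and 17 fell. With DESeq2, 9 rose, and the cause was not tested. With a library left out, 10 to 12 rose and 11 to 16 fell. The fits without a library rest on 3 libraries, and the lone library of an arm is assumed to vary like the other arm. Over all genes, 2625 rose and 2743 fell, with counts from 1821 to 2894 and from 1914 to 2748 over the alternatives. With the replicate block, 2364 rose and 2525 fell, and 1 member was higher and 2 were lower. Same-numbered libraries did not deviate together (correlation -0.074 over genes), so the paired fit is not the main one, and of the named genes whose alternatives were computed it ended the calls of Gata4 (adjusted p = 0.0717) and Hdac2 (0.0902) and no other. No value changed sign. Depth limits Hand1, Nkx2-5, Isl1, Irx3, Irx4 and Irx5, whose counts reached at most 14 per library.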
